A study of Homo sapiens with 9 samples.

Results

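The DEAD-box and DEAH-box RNA helicases were followed here through their mRNAs. Members were the protein-coding genes whose symbol is DDX or DHX followed by a number, leaving out DDX20, DDX39A, DDX39B, DDX58, DDX60, DDX60L, DHX9 and DHX58. There were 47 such genes among the 60604 gene IDs of the count table, and 43 of them were among the 19473 genes with enough counts to test. The rule for membership uses symbols alone and no measured value, but it was set with earlier results of these data known.

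These enzymes use ATP to open short RNA duplexes or to strip proteins from RNA. DEAD-box proteins bind an RNA duplex and pry it apart locally, whereas DEAH-box proteins pull along a single strand. Most of them act at a single stage of an RNA's life, such as ribosome assembly in the nucleolus, the remodelling steps of the spliceosome, mRNA export, translation or decay.

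RNA was measured in 9 libraries, 3 from each of 3 lines of human embryonic kidney origin. T-REx cells are HEK293 cells that carry the Tet repressor and served as the control without an inserted SMN cassette. TC4-2A cells derive from them and, on induction, express a circular RNA made of exons 2A, 2B, 3 and 4 of the SMN genes, while TL4-2A cells make a linear RNA from the same exons. The paper reports that the line made for the circular RNA also held the linear transcript, as a precursor of the circle. The direct comparison of the derived lines therefore does not set a circular RNA alone against a linear RNA alone. All 3 lines, the controls included, received Dox for 96 h. Each cassette was studied in a single derived line, so an effect of the expressed RNA and a difference that arose when the line was made cannot be told apart. Whether a line was a single clone, and whether its libraries came from separate cultures, is not given in the sources used here, so p-values measure the spread between these libraries, which may be technical.

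Libraries held 16561680 to 21491977 counts assigned to genes, and no scaling factor moved a library by more than a few percent (0.9906 to 1.014). SMN1, the source of the cassette's exons, stood at 36.3, 39.1 and 39.8 CPM (read counts put on a common library size by TMM) in T-REx cells. It stood at 75.4, 71.9 and 77.0 CPM in TC4-2A and at 42.6, 41.3 and 44.1 CPM in TL4-2A. All 6 HEK293 markers were detected, from a T-REx mean of 2.36 CPM for the neurofilament gene NEFM to 2342 CPM for IRS4, the adaptor typical of this line. Of 6 markers of blood, liver, connective tissue and endothelium, HBB was at 0 in every library, and no mean of the others exceeded 0.193 CPM.

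Before the values, the promoters of the 3 members with the largest increases in TC4-2A cells are shown as examples of the starts of these genes. They are the 250 bases before an annotated RefSeq start (GRCh38.p14), written 5′ to 3′ on the strand of the gene. All 3 genes lie on the minus strand, and each window lies inside the longer Gencode v44 gene span. Capitals mark the E-box CACGTG, which MYC-family factors can bind, and the ETS letters CCGGAAG, or CTTCCGG where they read on the other strand.

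DDX5, chr17:64506639-64506888: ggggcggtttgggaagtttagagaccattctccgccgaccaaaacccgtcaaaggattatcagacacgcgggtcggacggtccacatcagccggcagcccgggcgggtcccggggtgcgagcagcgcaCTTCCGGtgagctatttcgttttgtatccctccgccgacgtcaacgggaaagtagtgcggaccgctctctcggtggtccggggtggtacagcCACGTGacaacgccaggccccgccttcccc
DDX56, chr7:44573909-44574158: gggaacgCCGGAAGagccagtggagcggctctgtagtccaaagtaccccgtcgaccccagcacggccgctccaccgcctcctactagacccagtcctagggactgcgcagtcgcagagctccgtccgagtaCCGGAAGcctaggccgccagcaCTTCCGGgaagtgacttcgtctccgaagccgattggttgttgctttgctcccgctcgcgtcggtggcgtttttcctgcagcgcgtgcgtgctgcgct
DDX31, chr9:132669984-132670233: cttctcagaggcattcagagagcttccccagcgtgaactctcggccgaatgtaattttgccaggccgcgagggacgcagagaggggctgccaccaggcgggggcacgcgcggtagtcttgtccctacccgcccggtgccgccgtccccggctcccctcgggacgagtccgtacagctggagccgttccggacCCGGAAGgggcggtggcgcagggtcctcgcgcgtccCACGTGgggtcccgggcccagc

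The DDX5 and DDX31 windows hold both an E-box and the ETS letters, and the DDX56 window holds the ETS letters 3 times and no E-box. DDX5 and DDX31 each have a further RefSeq start whose window holds the TATA box letters TATAAA instead. They read on the strand of the gene for DDX5 and on the other strand for DDX31. Of the 43 tested members 39 matched this promoter table, with 53 windows. Searched on both strands, the ETS letters were in 17 of the 53 windows (32.1%), in 8.52% of all 35116 windows and in 13.2% of the windows of tested protein-coding genes. The E-box was in 9 of the members' windows (17.0%), against 6.34% of all windows and 8.09% of those of tested protein-coding genes. TATAAA was in 3 of them (5.66%, against 10.7% of all and 6.29% of tested protein-coding windows). The ETS letters were also in windows of DDX11, DDX42 and DHX30, higher in both lines, and of DDX21, higher in TC4-2A cells only. They were in those of DDX1, DHX16 and DHX8, called higher against T-REx in TL4-2A cells only. DHX38, whose calls in the derived lines were opposite, had them too. Windows of DDX46, DDX59, DHX57 and DDX19B, which were not called against T-REx in either derived line, also held them. So did those of DDX50 and DDX19A, which were lower in TL4-2A cells. The window of DHX35, higher in both lines, lacked them. The E-box was also in windows of DHX32 and DHX40, which were lower in both lines, and of DDX25, which was not called. It was in those of DHX34 and DHX35, higher in both lines, and of DDX21 and DDX54, higher in TC4-2A cells only. All of these are matches of letters and show no binding.

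The first question was which helicase mRNAs differ between TC4-2A and T-REx cells. Of the 43 members tested 19 were upregulated and 2 were downregulated in TC4-2A cells. Calls here and below use edgeR's quasi-likelihood test with an adjusted p below 0.05. The increases were small, from 1.05-fold for DDX42 to 1.35-fold for DDX5, and only DHX32 changed beyond 1.5-fold, to 0.66 of its T-REx level. Over all 19473 genes tested 28.8% were called, 14.2% higher and 14.6% lower. Calls are more frequent among well expressed genes, and the members are well expressed. Among the 3659 protein-coding genes within the interquartile range of the members' expression (5.7 to 7.34 log2 CPM), 43.8% were called, 24.0% higher and 19.8% lower, which is close to the members' 48.8% in total. The members' own split was 44.2% higher and 4.65% lower. Their median log2 fold change was 0.08, that of the protein-coding genes in the same range was 0.01, and that of all genes tested was 0.00. Libraries of the compared lines did not overlap in 28 of 43 members (65.1%), against 40.3% of all genes tested. For this measure, here and below, no share was worked out for genes in the members' range of expression. The part of expression level in the difference was therefore not tested.

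The second question was the same for the linear RNA. In TL4-2A cells 21 members were upregulated and 7 downregulated against T-REx cells, the increases lying between 1.05-fold for DDX24 and 1.37-fold for DDX5. Over all genes tested 44.3% were called, 21.9% higher and 22.5% lower. In the members' range of expression 58.0% were called, 30.9% higher and 27.1% lower, beside 65.1% of the members, 48.8% higher and 16.3% lower. The members' median log2 fold change was 0.08, and 32 of 43 did not overlap with T-REx (74.4%, against 51.6% of all genes tested). The T-REx libraries serve both comparisons, so their values are not independent.

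The third question was where the derived lines differ from each other. TC4-2A was above TL4-2A in 8 members and below it in 7. Over all genes tested 35.4% were called in this comparison, 17.6% higher and 17.8% lower, and in the members' expression range 47.8%, so the members' 34.9% was not above the background. Their median difference was -0.01 on the log2 scale. Libraries did not overlap in 23 of 43 members (53.5%, against 44.9% of all genes tested). Summed over the 43 members, helicase mRNA took 6772, 6819 and 6847 CPM in T-REx, 7286, 7327 and 7360 CPM in TC4-2A and 7320, 7407 and 7300 CPM in TL4-2A. The sums of the derived lines lie above all 3 control libraries and overlap each other. Abundant members weigh most in these sums. DDX17 had means of 1045, 1156 and 1216 CPM in T-REx, TC4-2A and TL4-2A, and DDX5 had 473, 638 and 650 CPM. In bulk RNA a change in the share of cells that express a gene and a change per cell cannot be told apart.

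**Figure D1:**
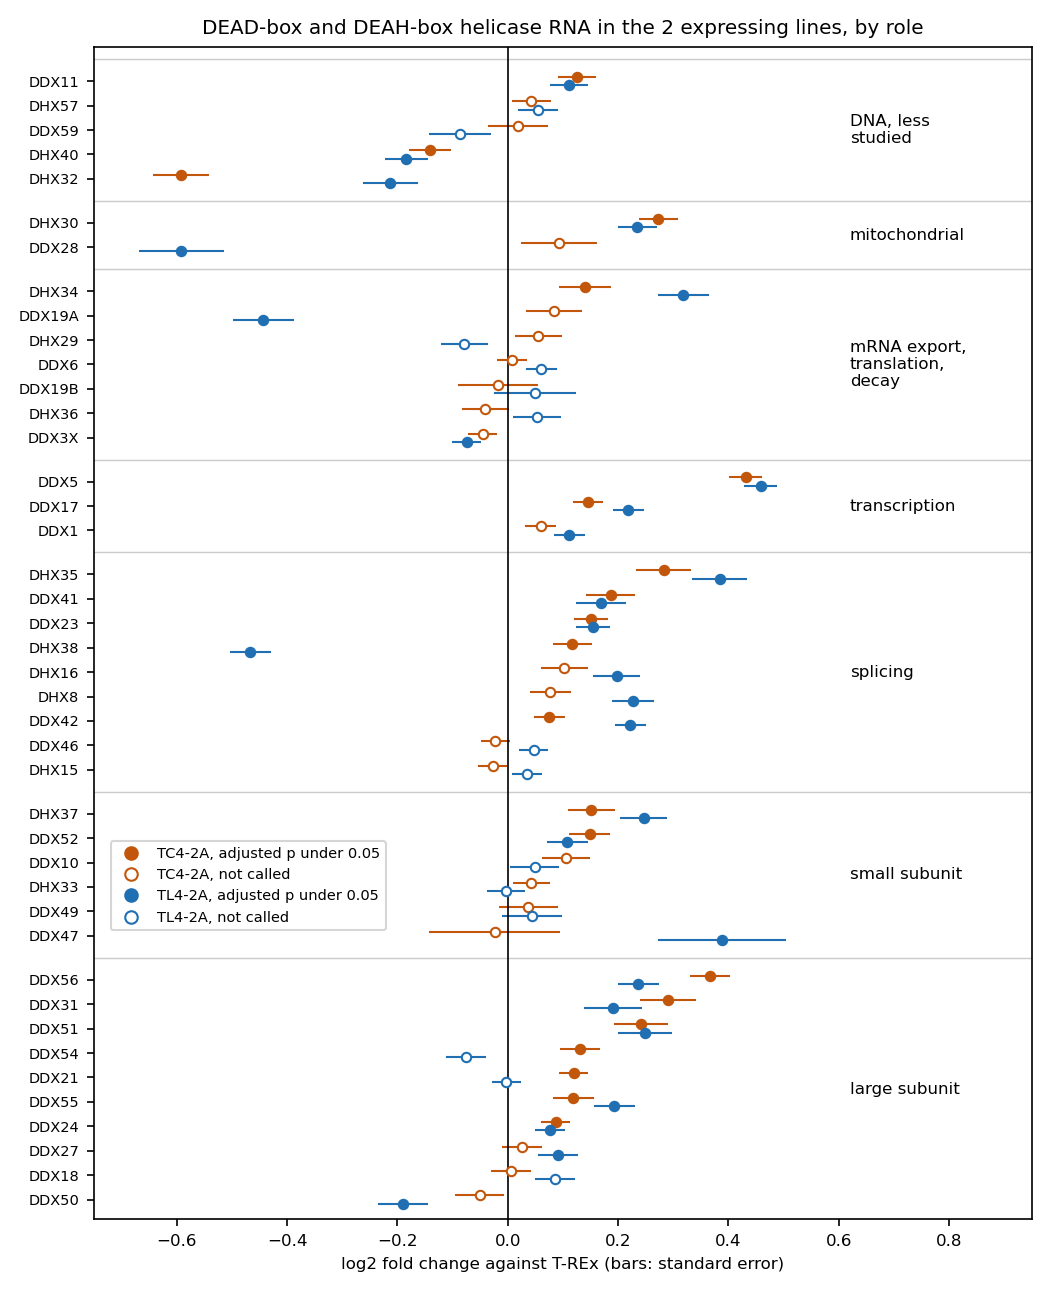
Log2 fold change of 42 tested members in TC4-2A (orange) and TL4-2A cells (blue) against T-REx cells, grouped by role, with bars for the standard error, filled points for adjusted p under 0.05 (edgeR) and DDX25 left out for its few counts. The 10 large-subunit helicases lie mostly to the right of 0 in TC4-2A cells, while DDX28, DHX38 and DDX19A lie between -0.59 and -0.44 in TL4-2A cells and above 0 in TC4-2A cells.

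The transcription and RNA processing cofactors held the largest increase. DDX5 (ENSG00000108654.16, GRCh38 chromosome 17, 64498254 to 64508199), also called p68, is a coactivator of several transcription factors and a helper in splicing and microRNA processing. It stood at 462, 472 and 486 CPM in T-REx, at 631, 629.8 and 655 CPM in TC4-2A and at 629.8, 681 and 640.1 CPM in TL4-2A. Every library of either derived line was above every control library. The log2 fold change was 0.43 in TC4-2A cells (standard error 0.03, edgeR adjusted p = 1.95e-14) and 0.46 in TL4-2A cells (standard error 0.03, edgeR adjusted p = 2.04e-15), and the lines did not differ by the test (-0.03, edgeR adjusted p = 0.514). Its 24 nearest tested neighbours had median log2 fold changes of 0.24 and 0.24, with 10 and 13 of them upregulated. CEP95, a centrosomal gene on the opposite strand that overlaps DDX5, had log2 fold changes of 0.45 and 0.46. The part of position and of shared reads in the DDX5 result was not tested.

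DDX17, or p72, the close relative of DDX5 with which it pairs, had 1055, 1044 and 1036 CPM in T-REx. In TC4-2A cells it had 1144, 1157 and 1168 CPM, and in TL4-2A cells 1236, 1220.0 and 1192 CPM. The 3 lines do not overlap, and their order was T-REx, TC4-2A, TL4-2A. The log2 fold changes were 0.15 (edgeR adjusted p = 6.36e-05) and 0.22 (edgeR adjusted p = 2.71e-08). The direct difference was -0.07 (edgeR adjusted p = 0.0359), and that call was lost when any of several single libraries was left out, with adjusted p of 0.0784, 0.0778 and 0.0509 without TC4-2A replicate 1, 2 or 3, and 0.0992 and 0.053 without TL4-2A replicate 1 or 2. The 24 neighbours of DDX17 had medians of 0.07 and 0.14 against T-REx, and of -0.07 in the direct comparison. DDX1, a subunit of the tRNA ligase complex, rose in TL4-2A cells by 0.11 (edgeR adjusted p = 0.00138), although its 24 neighbours on chromosome 2 had a median of -0.45 there. In TC4-2A cells DDX1 had a log2 fold change of 0.06 (edgeR adjusted p = 0.107).

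Of the 10 helicases of large ribosomal subunit assembly, 7 were upregulated in TC4-2A cells and none was downregulated by edgeR. At an unadjusted p under 0.05 none was downregulated either, and DESeq2 called none lower. In TL4-2A cells 6 were upregulated and 1, DDX50, was downregulated. The shares called were 70% and 70%, beside 28.8% and 44.3% of all genes tested and 43.8% and 58.0% in the members' range of expression. The group's median log2 fold change was 0.12 in the TC4-2A line and 0.09 in the TL4-2A line, beside 0.00 and 0.00 over all genes tested.

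DDX56 (ENSG00000136271.11, chromosome 7, 44565804 to 44575051), a nucleolar helicase of late large-subunit maturation, had the largest increase of the group. Its values were 110.4, 109 and 102 CPM in T-REx, 143, 136 and 136 CPM in TC4-2A and 125, 127 and 128 CPM in TL4-2A. The lines are fully apart, with TC4-2A highest. The log2 fold changes were 0.37 (standard error 0.04, edgeR adjusted p = 1.89e-10) and 0.24 (standard error 0.04, edgeR adjusted p = 1.55e-06), and the TC4-2A line stood above TL4-2A by 0.13 (edgeR adjusted p = 0.00402). Its neighbours had medians of 0.04 and 0.14, so the gene stood 0.33 above them in TC4-2A cells and 0.10 above them in TL4-2A cells.

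DDX31 (ENSG00000125485.17, chromosome 9, 132592997 to 132670401), a nucleolar helicase of 60S assembly, had 41.9, 41.9 and 37.1 CPM in T-REx. It had 50.1, 48.6 and 49.4 CPM in TC4-2A and 47.8, 45.9 and 44.4 CPM in TL4-2A. Both derived lines were above the controls, by 0.29 (edgeR adjusted p = 2.33e-05) and 0.19 (edgeR adjusted p = 0.00292). GTF3C4, which overlaps it on the opposite strand at a mean of 143 CPM, had log2 fold changes of 0.09 and 0.04. The 24 neighbours of DDX31 had medians of 0.12 and 0.15, with 8 and 12 of them called higher and 3 and 2 lower. In TL4-2A cells DDX31 stood only 0.04 above that median.

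DDX51, which acts in the 3′ end processing of 28S rRNA, had 37.0, 36.9 and 36.4 CPM in T-REx. It had 42.7, 45.2 and 42.5 CPM in TC4-2A and 45.4, 43.0 and 42.7 CPM in TL4-2A. Neither derived line overlapped T-REx. The increases were 0.24 (edgeR adjusted p = 0.00016) and 0.25 (edgeR adjusted p = 7.92e-05), beside neighbour medians of 0.13 and 0.17.

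A pair of large-subunit helicases was called in TC4-2A but not in TL4-2A cells, and the direct test differed for both. DDX21, an abundant nucleolar helicase that links rRNA transcription to processing, had 552, 562 and 564 CPM in T-REx, 605, 610.3 and 608 CPM in TC4-2A and 551, 568 and 556 CPM in TL4-2A. Its TC4-2A libraries lie above the 6 others, which overlap. The log2 fold change was 0.12 in TC4-2A cells (edgeR adjusted p = 0.000467) and 0.00 in TL4-2A cells (edgeR adjusted p = 0.949), and the direct difference was 0.12 (edgeR adjusted p = 0.000277).

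DDX54, a nucleolar helicase and corepressor of nuclear receptors, had 129, 142 and 138 CPM in T-REx, 154, 149.7 and 144 CPM in TC4-2A and 129, 132 and 127 CPM in TL4-2A. T-REx replicate 1 lies within the TL4-2A values and below the other controls. The fold changes were 0.13 (edgeR adjusted p = 0.00428) and -0.08 (edgeR adjusted p = 0.0912). Without T-REx replicate 1 the first call was lost (0.09, edgeR adjusted p = 0.0704) and the second was gained as a decrease (-0.11, edgeR adjusted p = 0.016). The direct difference of 0.21 (edgeR adjusted p = 1.49e-05) was called in every alternative run.

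DDX50, the paralogue of DDX21 that lies beside it on chromosome 10, moved otherwise. It had 73.0, 72.8 and 74.1 CPM in T-REx, 71.8, 68.3 and 72.2 CPM in TC4-2A and 60.8, 65.2 and 66.8 CPM in TL4-2A. The TL4-2A libraries are the lowest. The decrease in TL4-2A cells was -0.19 on the log2 scale (edgeR adjusted p = 0.000795). The direct difference was 0.14 (edgeR adjusted p = 0.0152), a call lost without TC4-2A replicate 3 (edgeR adjusted p = 0.0545) or TL4-2A replicate 1 (edgeR adjusted p = 0.12). A processed pseudogene, DDX50P1, had a mean of 5.94 CPM, so part of the reads may be divided between the copies.

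Of the remaining members of this group, DDX55 rose by 0.12 and 0.19 (edgeR adjusted p = 0.0144 and 6.38e-05) and DDX24 by 0.09 and 0.08 (edgeR adjusted p = 0.0113 and 0.0184). The call of DDX55 in TC4-2A cells was lost without T-REx replicate 1 or 2 or TC4-2A replicate 2 (edgeR adjusted p = 0.0506, 0.0555 and 0.0516). For DDX24 the call in TC4-2A cells was lost without TC4-2A replicate 2 (edgeR adjusted p = 0.0518), and that in TL4-2A cells without T-REx replicate 3 or TL4-2A replicate 1 (edgeR adjusted p = 0.0509 and 0.13). DDX27 was called in TL4-2A cells only at the margin (0.09, edgeR adjusted p = 0.0378). Leaving out T-REx replicate 1, 2 or 3 or TL4-2A replicate 2 or 3 ended that call, with edgeR adjusted p of 0.0766, 0.0772, 0.123, 0.206 and 0.0532. DDX18, which had log2 fold changes of 0.01 and 0.09 (edgeR adjusted p = 0.928 and 0.0522), passed in TL4-2A cells without T-REx replicate 3, TC4-2A replicate 1 or TL4-2A replicate 1 (edgeR adjusted p = 0.0206, 0.0466 and 0.0149). It also passed there, at edgeR adjusted p of 0.0267 to 0.05, with RLE size factors, a minimum of 10 counts in every library, a replicate block or only the compared lines in the fit.

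**Figure D2:**
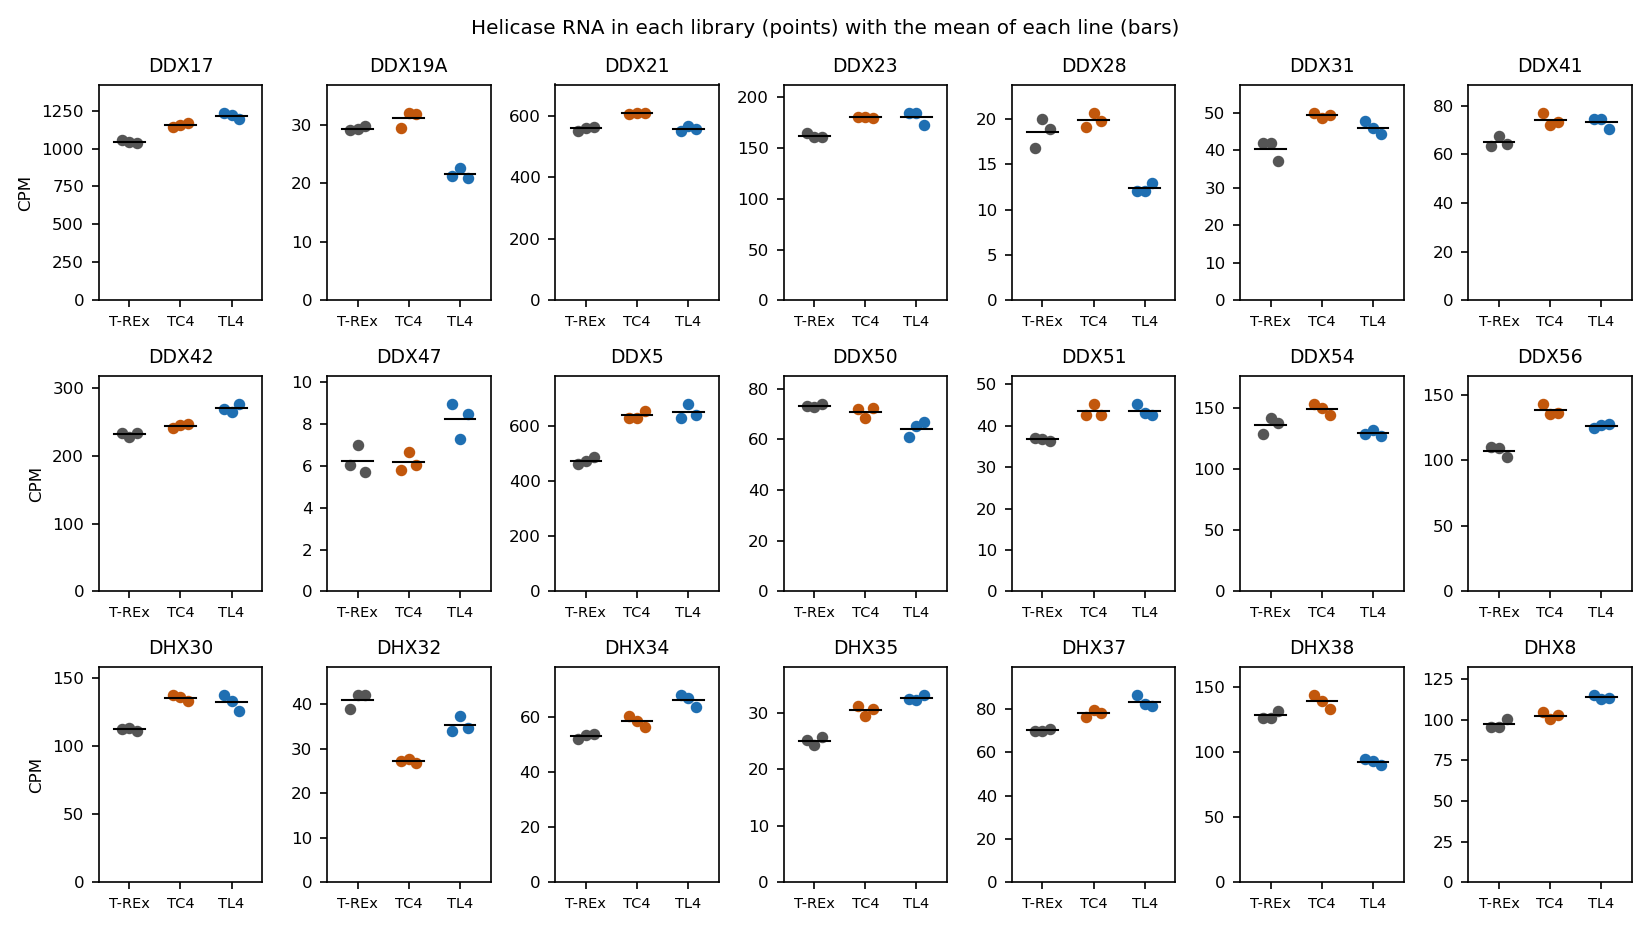
CPM of the 21 members given with every library, 3 points per line, black bars for the mean and axes that start at 0. DDX5 and DDX56 are higher in all 6 libraries of the derived lines (TC4 and TL4 on the axis), DHX32 is lowest in TC4-2A cells, and DDX19A, DDX28 and DHX38 are lowest in TL4-2A cells.

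Among the 6 helicases of small-subunit assembly, TC4-2A cells upregulated 2 and TL4-2A cells 3, and none was called lower by edgeR or DESeq2 or had an unadjusted p under 0.05 with a decrease. The shares called were 33.3% and 50%, beside 28.8% and 44.3% of all genes tested and 43.8% and 58.0% in the members' range of expression. DHX37, which frees the U3 snoRNA from the maturing particle, had 70.0, 69.9 and 70.9 CPM in T-REx. It had 76.5, 79.5 and 78.2 CPM in TC4-2A and 86.6, 82.2 and 81.3 CPM in TL4-2A. The lines do not overlap, and the increases were 0.15 (edgeR adjusted p = 0.00507) and 0.25 (edgeR adjusted p = 8.92e-06). DDX52 rose by 0.15 and 0.11 (edgeR adjusted p = 0.00182 and 0.0171). Its call in TL4-2A cells was lost without T-REx replicate 1, TL4-2A replicate 2 or TL4-2A replicate 3 (edgeR adjusted p = 0.132, 0.0985 and 0.0784).

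DDX47 (ENSG00000213782.7, chromosome 12, 12813316 to 12829981), the counterpart of yeast Rrp3, was called in TL4-2A cells. It had 6.04, 7.0 and 5.69 CPM in T-REx, 5.79, 6.65 and 6.02 CPM in TC4-2A and 8.96, 7.27 and 8.47 CPM in TL4-2A. The TL4-2A libraries are the highest, by 0.39 on the log2 scale (standard error 0.12, edgeR adjusted p = 0.00615). The gene had only 109 to 151 counts a library, and APOLD1, whose gene model overlaps it on the same strand, had 29.0 CPM and a log2 fold change of -0.35, so its count is uncertain. The neighbours' median was 0.22 there. DDX10, DDX49 and DHX33 had log2 fold changes between -0.003 and 0.10 in both lines, with edgeR adjusted p from 0.0684 upward. DDX10 passed in TC4-2A cells without TC4-2A replicate 1 (edgeR adjusted p = 0.0369).

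Among the 9 spliceosomal helicases, 5 were upregulated in TC4-2A cells, and 6 were upregulated and 1 was downregulated in TL4-2A cells. The shares called were 55.6% and 77.8%, beside 28.8% and 44.3% of all genes tested and 43.8% and 58.0% in the members' range of expression. The 9 helicases are given from the early assembly steps to disassembly, followed by DHX35 and DDX41. DDX46 (PRP5), which readies U2 for the branch site, had log2 fold changes of -0.02 and 0.05 (edgeR adjusted p = 0.582 and 0.155). Its direct difference of -0.07 was called (edgeR adjusted p = 0.0401) but lost when any of 6 libraries was left out, with edgeR adjusted p from 0.0516 without T-REx replicate 3, 0.0777, 0.0813 and 0.0991 without TC4-2A replicate 2, TL4-2A replicate 3 and TC4-2A replicate 1, to 0.102 and 0.174 without TC4-2A replicate 3 and TL4-2A replicate 2.

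DDX42, a U2-associated helicase, had 233, 228 and 233 CPM in T-REx, 241, 245 and 246 CPM in TC4-2A and 269.8, 264 and 277 CPM in TL4-2A. The order of the lines was T-REx, TC4-2A, TL4-2A, without overlap. Its increase of 0.08 in TC4-2A cells (edgeR adjusted p = 0.0375) was lost with DESeq2 (adjusted p = 0.0626), without any single T-REx replicate (edgeR adjusted p = 0.0541, 0.157 and 0.0598 for replicates 1, 2 and 3) and without TC4-2A replicate 2 or 3 (edgeR adjusted p = 0.14 and 0.123). The increase of 0.22 in TL4-2A cells (edgeR adjusted p = 2.77e-08) and the direct difference of -0.15 (edgeR adjusted p = 5.13e-05) held in every alternative. CCDC47, on the opposite strand, overlaps the gene and had log2 fold changes of -0.03 and 0.03. The 24 neighbours of DDX42 had medians of 0.14 and 0.14, with 12 and 11 of them called higher and 2 and 5 lower. In TC4-2A cells DDX42 lay below that median.

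DDX23 (PRP28), which releases U1 from the 5′ splice site, had 165, 160.3 and 161 CPM in T-REx. It had 180.0, 179.8 and 179.6 CPM in TC4-2A and 184, 184 and 172 CPM in TL4-2A. The derived lines overlap each other and lie above T-REx, by 0.15 (edgeR adjusted p = 0.000187) and 0.16 (edgeR adjusted p = 8.1e-05). DHX16 (PRP2), which activates the spliceosome, rose by 0.20 in TL4-2A cells (edgeR adjusted p = 0.000209) and had 0.10 in TC4-2A cells (edgeR adjusted p = 0.0622).

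DHX38 (ENSG00000140829.12, chromosome 16, 72093613 to 72112912), the human PRP16 that remodels the spliceosome between its chemical steps, was the only member called in opposite directions in the derived lines. It had 126, 127 and 132 CPM in T-REx, 144, 139.5 and 133 CPM in TC4-2A and 94.8, 93.1 and 90.4 CPM in TL4-2A. The TL4-2A libraries are far below the others. The decrease in TL4-2A cells was -0.47 on the log2 scale (standard error 0.04, edgeR adjusted p = 5.2e-13), a level 0.72 of that in T-REx cells, and the direct difference was 0.58 (standard error 0.04, edgeR adjusted p = 1.02e-15). The small increase in TC4-2A cells (0.12, edgeR adjusted p = 0.0112) was lost without T-REx replicate 1 or 2 or TC4-2A replicate 1 (edgeR adjusted p = 0.0531, 0.0666 and 0.0855). In TL4-2A cells the 24 neighbours of DHX38 had a median of -0.42, with 15 called lower and 0 called higher.

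DHX8 (PRP22), which frees the spliced mRNA, had 95.5, 95.4 and 100.5 CPM in T-REx, 104, 100.2 and 103 CPM in TC4-2A and 115, 113 and 113 CPM in TL4-2A. The TL4-2A libraries are the highest, by 0.23 over T-REx (edgeR adjusted p = 4.79e-06) and by 0.15 over TC4-2A cells (edgeR adjusted p = 0.0015). Its value of 0.08 in TC4-2A cells was not called (edgeR adjusted p = 0.121). DHX15 (PRP43), which takes the spent spliceosome apart, had -0.03 and 0.03 (edgeR adjusted p = 0.48 and 0.301).

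DHX35 and DDX41 are found in the catalytic spliceosome. DHX35 had 25.1, 24.3 and 25.6 CPM in T-REx, 31.2, 29.4 and 30.6 CPM in TC4-2A and 32.3, 32.3 and 33.2 CPM in TL4-2A. The lines are fully apart, and the increases were 0.28 (edgeR adjusted p = 2.35e-05) and 0.38 (edgeR adjusted p = 6.39e-08), beside neighbour medians of 0.05 and 0.13. DDX41, in which inherited mutations predispose to myeloid leukaemia, had 63.6, 67.7 and 64.2 CPM in T-REx, 77.2, 72.0 and 73.3 CPM in TC4-2A and 74.7, 74.5 and 70.5 CPM in TL4-2A. Both derived lines lie above T-REx, by 0.19 (edgeR adjusted p = 0.00134) and 0.17 (edgeR adjusted p = 0.00259), with neighbour medians of 0.11 and 0.14.

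The 8 tested helicases of mRNA export, translation and decay had a median log2 fold change of -0.01 in TC4-2A cells, where only DHX34 was called, and it was higher. In TL4-2A cells DHX34 was higher, and DDX19A and DDX3X were lower. The shares called were 12.5% and 37.5%, beside 28.8% and 44.3% of all genes tested and 43.8% and 58.0% in the members' range of expression. DHX34, a factor of nonsense-mediated decay, had 52.1, 53.7 and 53.9 CPM in T-REx, 60.6, 58.8 and 56.6 CPM in TC4-2A and 68.3, 67.0 and 63.9 CPM in TL4-2A. The order was again T-REx, TC4-2A, TL4-2A. The increase in TL4-2A cells was 0.32 (edgeR adjusted p = 6.13e-07) beside a neighbour median of 0.00, and the direct difference was -0.18 (edgeR adjusted p = 0.0023). The increase of 0.14 in TC4-2A cells (edgeR adjusted p = 0.0205) was lost without T-REx replicate 1 or TC4-2A replicate 1 (edgeR adjusted p = 0.0822 and 0.0844).

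DDX19A (ENSG00000168872.17, chromosome 16, 70346861 to 70373383) and DDX19B (ENSG00000157349.17, 70289663 to 70335305) are adjacent, nearly identical genes whose proteins act at the nuclear pore in mRNA export. DDX19A had 29.1, 29.2 and 29.8 CPM in T-REx, 29.4, 32.1 and 31.9 CPM in TC4-2A and 21.2, 22.6 and 20.9 CPM in TL4-2A. The TL4-2A libraries stand apart, by -0.44 on the log2 scale from T-REx (standard error 0.06, edgeR adjusted p = 2.24e-08) and by 0.53 in the direct comparison (edgeR adjusted p = 3.49e-10). DDX19B, at 15.2 to 15.5 CPM in T-REx and 15.4 to 16.8 CPM in TL4-2A, had a log2 fold change of 0.05 (edgeR adjusted p = 0.625). The neighbours' medians in TL4-2A cells were -0.37 for DDX19A and -0.30 for DDX19B, and AARS1, on the opposite strand across part of DDX19B, had -0.57. How reads that match both genes were counted is not given in the sources used here, so the division between DDX19A and DDX19B is uncertain.

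DDX3X, a translation initiation helicase, fell by 0.07 on the log2 scale in TL4-2A cells (edgeR adjusted p = 0.0191) and had -0.05 in TC4-2A cells (edgeR adjusted p = 0.199). DDX6, a translational repressor of P-bodies, had log2 fold changes of 0.01 and 0.06 (edgeR adjusted p = 0.878 and 0.0696), and DHX36, which unwinds G-quadruplexes, had -0.04 and 0.05 (edgeR adjusted p = 0.531 and 0.342). DHX29, which helps the small subunit scan structured leaders, had 0.06 and -0.08 (edgeR adjusted p = 0.361 and 0.143), and its direct difference of 0.13 was called (edgeR adjusted p = 0.0137). DDX25, a helicase of developing sperm, had only 5 to 21 counts a library, and its log2 fold changes of -1.02 and -0.63 had standard errors of 0.41 and 0.40 (edgeR adjusted p = 0.0562 and 0.199). It passed in TC4-2A cells without T-REx replicate 1 or TC4-2A replicate 2 (edgeR adjusted p = 0.0131 and 0.0317).

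The mitochondrial pair diverged in TL4-2A cells. DHX30, a helicase of mitochondrial RNA granules, had 112, 113 and 111 CPM in T-REx, 138, 136 and 133 CPM in TC4-2A and 137, 133 and 126 CPM in TL4-2A. Both derived lines lie above T-REx, by 0.27 (edgeR adjusted p = 9.56e-08) and 0.24 (edgeR adjusted p = 1.11e-06). DDX28 (ENSG00000182810.7, chromosome 16, 68020916 to 68023232), which helps assemble the large mitochondrial ribosomal subunit, had 16.9, 20.0 and 18.9 CPM in T-REx, 19.1, 20.7 and 19.8 CPM in TC4-2A and 12.1, 12.1 and 13.0 CPM in TL4-2A. The TL4-2A libraries are lowest, at 0.66 of the T-REx level (-0.59 on the log2 scale, standard error 0.08, edgeR adjusted p = 5.6e-08), and TC4-2A cells were 1.61-fold above them (edgeR adjusted p = 1.92e-09). DUS2, which overlaps DDX28 at 27.6 CPM, had a log2 fold change of -0.57 in TL4-2A cells.

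DDX28, DDX19B, DDX19A and DHX38 lie in this order within a stretch of chromosome 16 from 68020916 to 72112912, which was picked out after its values were seen. It holds 77 other tested genes, and in TL4-2A cells 52 of them were called lower and 0 higher, with a median log2 fold change of -0.46. In TC4-2A cells 12 were higher and 6 lower, with a median of 0.03. DDX28, DDX19A and DHX38, at -0.59, -0.44 and -0.47, thus lay near the stretch's median or below it. Whether position accounts for them was not tested.

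The group of DNA helicases and less studied members held the decreases in TC4-2A cells. DHX32 (ENSG00000089876.12, chromosome 10, 125836337 to 125896436), a helicase-like protein of unsettled function, had 38.9, 42.1 and 42.0 CPM in T-REx, 27.1, 27.7 and 26.8 CPM in TC4-2A and 34.0, 37.4 and 34.7 CPM in TL4-2A. The lines do not overlap, and TC4-2A is lowest. The log2 fold change was -0.59 in TC4-2A cells (standard error 0.05, edgeR adjusted p = 6.57e-12) and -0.21 in TL4-2A cells (standard error 0.05, edgeR adjusted p = 0.000612), with a direct difference of -0.38 (edgeR adjusted p = 2.49e-07). Of its 24 neighbours 17 were lower and 1 was higher in TC4-2A cells, with a median of -0.54, whereas in TL4-2A cells 5 were lower and 6 higher, with a median of 0.03. BCCIP, on the opposite strand across part of DHX32 at a mean of 138 CPM, had log2 fold changes of -0.38 and 0.13 in the circular and linear RNA lines.

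DHX40 was lower in both lines, by 0.14 and 0.18 in size (log2 fold changes -0.14 and -0.18, edgeR adjusted p = 0.0043 and 0.000179), with neighbour medians of -0.02 and -0.01. Its call in TC4-2A cells was lost without TC4-2A replicate 2 (edgeR adjusted p = 0.0627). DDX11, a DNA helicase of sister chromatid cohesion, rose by 0.13 and 0.11 (edgeR adjusted p = 0.00455 and 0.00823). The call in TL4-2A cells was lost without T-REx replicate 2 or TL4-2A replicate 1 (edgeR adjusted p = 0.0668 and 0.0578). Its near copies DDX12P and DDX12B were counted at means of 40.4 and 52.1 CPM, so the division of reads among these genes is uncertain. DDX59 and DHX57 were not called in either line, with log2 fold changes of 0.02 and -0.09 for DDX59 and 0.04 and 0.05 for DHX57 (lowest edgeR adjusted p = 0.215). DDX59 passed as lower in TL4-2A cells without T-REx replicate 1 (-0.14, edgeR adjusted p = 0.0425).

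The germline helicases were nearly silent. DDX4, the germ cell marker VASA, had 1 to 10 counts a library, DDX43 had 0 to 1, and DDX53 had 0 in all 9 libraries. A count of 0 allows up to 3 counts, or 0.181 CPM in the shallowest library, for counting error alone. DDX3Y was not among the tested genes, and its counts are not given here.

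**Figure D3:**
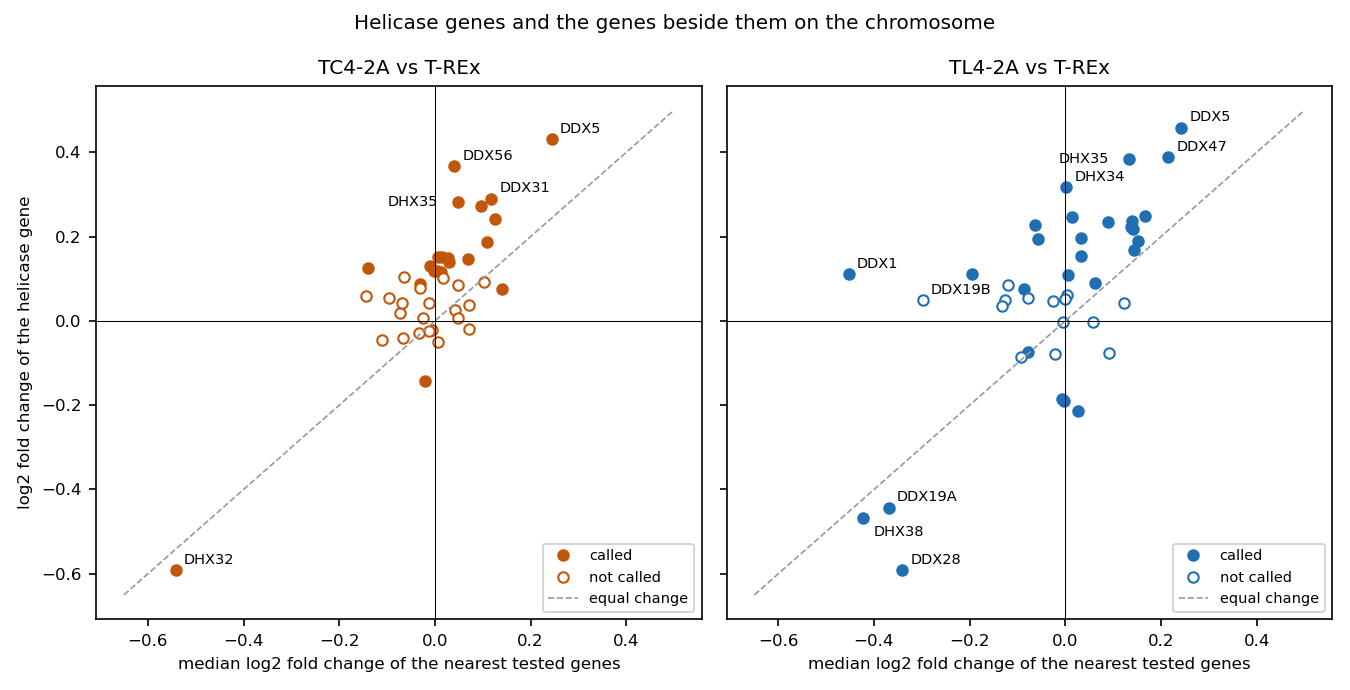
Log2 fold change of 42 tested members (DDX25 left out) against the median of the 24 nearest tested genes, in TC4-2A (left) and TL4-2A cells (right), with filled points for adjusted p under 0.05 and a dashed line where both are equal. DHX32 lies near the line at a neighbour median of -0.54 on the left, DDX19A and DHX38 at -0.37 and -0.42 on the right, while DDX56 (0.04, left) and DHX34 (0.00, right) lie above it.

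Neighbouring genes moved with some members and not with others. A neighbour median beyond 0.1 in size was found for 10 members in TC4-2A cells and for 19 in TL4-2A cells, and 6 and 12 of these were called in the direction of their neighbours. Another 14 members were called in each line with a neighbour median within 0.1. DDX56 in TC4-2A cells and DHX34 in TL4-2A cells were those with increases beyond 0.3 and neighbour medians of 0.04 and 0.00. DDX19B and DDX1 in TL4-2A cells showed the reverse, with neighbour medians of -0.30 and -0.45 and log2 fold changes of 0.05 and 0.11.

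Levels of different genes were compared as CPM per kb of exon. Exon length was the union of all annotated exons of a gene, such as 9.311 kb for DDX5 and 2.683 kb for DDX50. Which isoforms the cells use was not measured, so the order of genes depends on this length. The SD covers only the spread between libraries. In T-REx cells DDX17 was highest at 104.5 ± 0.97 CPM per kb (SD, n = 3), followed by DDX21 at 60.3 ± 0.68 and DDX5 at 50.8 ± 1.31. DDX46 and DDX24 came next at 36.7 ± 0.57 and 36.5 ± 0.14, a difference within their spread, as was that between DHX15 (35.0 ± 0.35) and DDX3X (34.8 ± 0.15). In the derived lines DDX5 reached 68.6 ± 1.51 and 69.9 ± 2.93 CPM per kb, which put it above DDX21 (65.5 ± 0.30 and 60.2 ± 0.93). The members' median was 15.5 CPM per kb against 3.66 over all tested genes, and 40 of 43 lay above that median. DDX19B (3.45), DDX47 (1.24) and DDX25 (0.0705) lay below it.

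**Figure D4:**
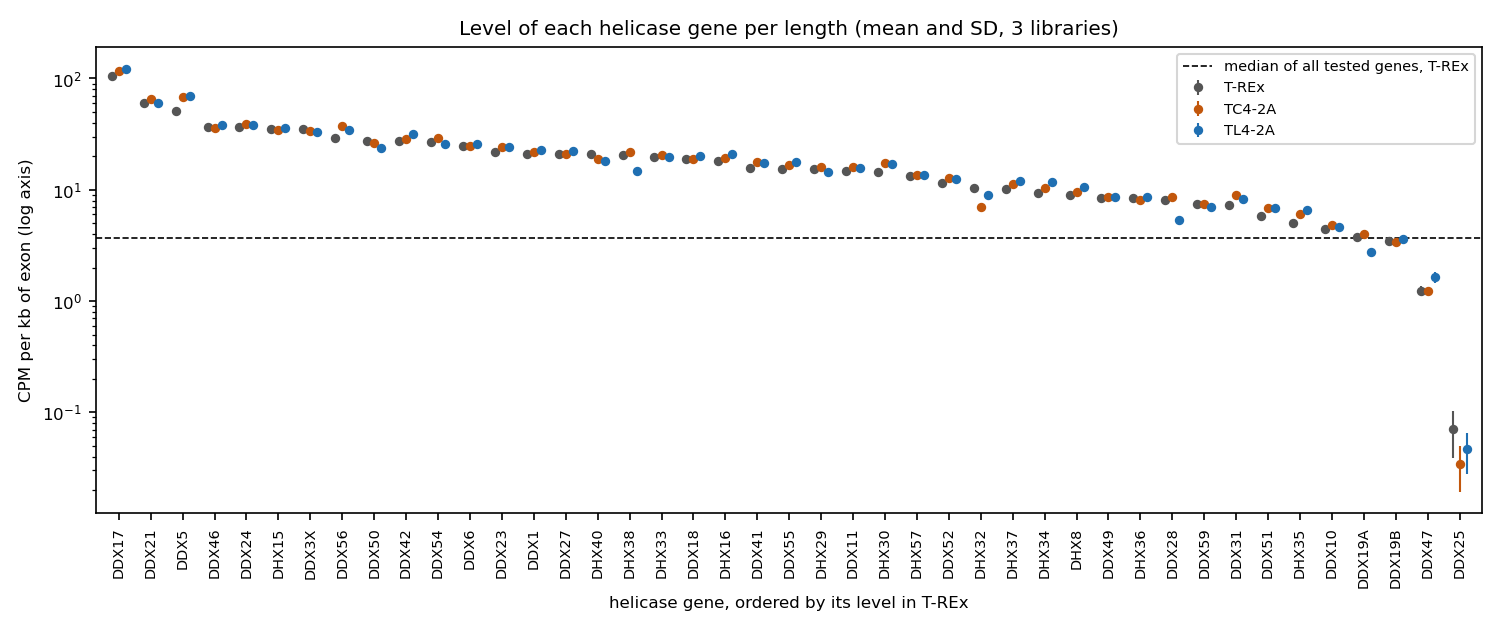
Level of the 43 tested members per kb of exon, on a log axis, ordered by T-REx (grey) with TC4-2A (orange) and TL4-2A cells (blue) beside it, as mean and SD of 3 libraries. Most members lie above the median of all tested genes (3.66 CPM per kb, dashed), DDX17 leads, and DDX25 falls far below the rest.

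Helicases depend on partner proteins, such as the G-patch proteins that switch on DEAH-box helicases. Of 32 such cofactors 31 were tested. In TC4-2A cells 12 were upregulated and 0 downregulated (edgeR), none fell by DESeq2 or at an unadjusted p under 0.05, and the median log2 fold change was 0.08. The share called was 38.7%, beside 28.8% of all genes tested and 43.8% of the protein-coding genes in the members' range of expression. In TL4-2A cells 17 were upregulated and 1, GPATCH3, was downregulated, with a median of 0.15, and the 58.1% called stood beside 44.3% and 58.0%. These shares were below or near those of the genes in the members' range. The 3 with the smallest p in TC4-2A cells were CHERP (128.3 ± 5.12 to 151.9 ± 1.63 CPM), SON, a nuclear speckle scaffold (773.5 ± 5.27 to 884 ± 18.4 CPM), and GPATCH4, a nucleolar G-patch protein (108.0 ± 4.02 to 131.8 ± 5.83 CPM). Their log2 fold changes were 0.24, 0.19 and 0.29. In TL4-2A cells they were the splicing regulators RBM5 (0.46) and RBM10 (0.28), and NUP214 (0.28), the nuclear pore anchor of DDX19. GPATCH3 had a log2 fold change of -0.38 (edgeR adjusted p = 0.000249). Compared directly, 9 cofactors (29%, beside 35.4% of all genes tested) differed between the derived lines, with TC4-2A above in 3 and below in 6.

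Of 15 RNA helicases of other names 14 were tested. By edgeR TC4-2A cells upregulated 5 and TL4-2A cells 8, and the direct comparison called 9 of 14, 3 higher and 6 lower in TC4-2A cells. These shares of 35.7%, 57.1% and 64.3% stood beside 28.8%, 44.3% and 35.4% of all genes tested, and beside 43.8%, 58.0% and 47.8% in the members' range of expression. The count of 5 fell to 3 without T-REx replicate 1, TC4-2A replicate 2 or TC4-2A replicate 3. EIF4A1, the cap-dependent translation helicase, had the smallest p in both lines, with log2 fold changes of 0.35 and 0.55. It stood at only 19.2 ± 0.09 CPM in T-REx, and a gene model that reads through it shares its exons, so its count is uncertain. SNRNP200, the helicase that unwinds U4 from U6, rose by 0.10 and 0.21, EIF4A2 by 0.10 in TC4-2A cells, and MOV10 by 0.34 in TL4-2A cells. EIF4A2 had -0.02 in TL4-2A cells (edgeR adjusted p = 0.632) and a direct difference of 0.12 (edgeR adjusted p = 0.00123).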

How the data were processed

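Directional, paired-end libraries were made from rRNA-depleted total RNA, 3 for each line. The authors mapped reads to GRCh38 with HISAT2 and assigned them to Gencode v33 genes with featureCounts (Subread). The deposited values are raw counts per gene. The sources used here give neither tool versions nor how strand and multiply matched reads were handled. The authors also deposited DESeq2 log2 fold changes with their standard errors, p-values and adjusted p-values, which were not used.

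Of the lines of the count file, 60648 were used and 3 damaged lines were left out. Names, positions and exon lengths came from Gencode v44, which held 60462 of 60604 gene IDs. Counts were fitted with edgeR 4.0.16 in R 4.3.3 (TMM scaling, filterByExpr, 1 quasi-likelihood model over 9 libraries, 2-sided), and p-values were adjusted by Benjamini and Hochberg over 19473 genes. The members and the lists of roles and cofactors were chosen with earlier results of these data known. Values in every library are given for the 10 called members with the largest change in each of the 3 comparisons and the 3 with the highest level per length. In the cofactor and other helicase lists, the 3 genes with the smallest p against T-REx in each line are named, and others were picked out after their values were seen. Neighbours are the 12 tested genes on either side. The test was tried on simulated data. Alternatives were DESeq2 1.42.0, RLE scaling, other expression filters, only the compared lines, a replicate block and each library left out. Protein sequences were not used here. Tables were built in pandas 2.3.3 under Python 3.11.15, and plots in matplotlib 3.10.9.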

Additional observations from a re-analysis of the deposited data

Results flagged for a closer look

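The effects of the circular and the linear RNA lines against the same controls differed by the direct test (edgeR) for 15 members, given here as the log2 difference TC4-2A minus TL4-2A. That share of 34.9% was not above the 35.4% of all genes tested or the 47.8% in the members' range of expression. Those higher in TC4-2A cells were DDX28 (0.68), DHX38 (0.58), DDX19A (0.53), DDX54 (0.21), DDX50 (0.14), DHX29 (0.13), DDX56 (0.13) and DDX21 (0.12). Those lower were DDX47 (-0.41), DHX32 (-0.38), DHX34 (-0.18), DHX8 (-0.15), DDX42 (-0.15), DDX17 (-0.0726) and DDX46 (-0.0693). The 3 largest positive differences lie in the chromosome 16 stretch whose other genes had a median difference of 0.48, and the neighbours of DHX32 had a median of -0.54.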

How the results depend on the processing

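Counts of called members, cofactors and other helicases stayed within 1.5 times the reported value under every alternative, except 1. The number of other RNA helicases called in TC4-2A against T-REx cells was 5, and leaving out single libraries gave 3 to 6. Leaving out single libraries gave 14 to 19 members higher and 2 to 3 lower in the circular RNA line, 19 to 22 higher and 7 to 9 lower in the linear RNA line, and 7 to 8 higher and 5 to 8 lower in the direct comparison. Of the called members 14 of 21, 24 of 28 and 12 of 15 were called in every alternative, and no direction of a called member reversed. DESeq2 did not call DDX42, DDX27 and DDX46, 1 in each comparison. Without an expression filter DDX42, then DDX24, DDX27 and DDX52, and then DDX17 and DDX46 were not called either. A minimum of 10 counts in every library lost DDX17 and DDX46 in the direct comparison and added DHX16 in TC4-2A and DDX18 in TL4-2A cells. A fit of only the compared lines lost DDX42 in TC4-2A cells, and it and RLE scaling added DDX18 in TL4-2A cells. Same-numbered libraries did not deviate together (correlations from -0.0295 to 0.0302), so the numbers do not pair them. With the replicate number as a block, TC4-2A cells had 21 increased and 2 decreased members, TL4-2A cells 22 and 7, and the direct comparison 8 and 7. Not the same genes were called: the block added DDX10 and DHX16 (edgeR adjusted p = 0.0368 and 0.0391) in TC4-2A cells and DDX18 (0.0267) in TL4-2A cells, and in the direct comparison it lost DDX46 (0.0516) and added DDX18 (0.0496). The block gave 12, 18 and 10 cofactors and 5, 8 and 9 other helicases. DDX25 and DDX47, with the fewest counts of the tested members, had the widest standard errors, up to 0.46 and 0.12 on the log2 scale.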
